A study of Mus musculus with 14 samples.

Results

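The 8 integrin subunit genes Itga3, Itga5, Itga6, Itgav, Itgb1, Itgb3, Itgb5 and Itgb8 were followed through 14 RNA-seq libraries of the mouse lens epithelial line αTN4-1. They were chosen by name, from 40853 gene identifiers, and all 8 passed the expression filter, a mean over the libraries of 1 TPM or more (TPM is a transcript level corrected for transcript length and library size). αTN4-1 descends from a transgenic mouse lens that expressed a viral T antigen, the source of its transformation. Each library was 1 culture of 1 of 7 stable lines, kept under neomycin selection and either given TGFβ at 20 ng/mL for 24 h in medium without serum or labelled control. Lines labelled S133A/R314A-CREB, S133A-CREB and S133A-KCREB have their partners without S133A in R314A-CREB, WT-CREB and KCREB, and the last line, Vector, carries no CREB form. The transcription factor CREB binds cAMP response elements and is activated by phosphorylation at Ser133, which S133A removes. KCREB is known as a form that cannot bind DNA, and R314A alters the region through which CREB dimerises and binds its CRTC coactivators. The labels do not say how many clones make up a line, nor whether the control cultures had serum, so an effect of TGFβ cannot be told apart from one of serum withdrawal.

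Integrins are heterodimers of an α and a β chain that join the extracellular matrix to the actin cytoskeleton. The β1 chain pairs with α3 and α6 as laminin receptors, with α5 as the main fibronectin receptor and with αv. The αv chain also pairs with β3, β5 and β8, which bind vitronectin, fibronectin or the latent form of TGFβ, and αvβ8 and some other αv integrins release active TGFβ from that latent complex. In the lens, the epithelium sits on a laminin-rich capsule, and a change of integrins accompanies the transition of lens epithelial cells to myofibroblast-like cells under TGFβ, a process studied in cataract.

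TGFβ cultures had more Itga5 and Itgb3 RNA and less Itga3, Itga6 and Itgb8 RNA than control cultures. Itgb3 was low, with a mean of 0.838 TPM, under the filter, in the 12 libraries outside WT-CREB. Its call was lost in a fit that ignored the line (limma adjusted p = 0.184). The Itga6 call held under 10 of 17 alternatives, at means of 1.07 TPM with TGFβ and 2.42 TPM in control cultures. Those 10 include the exact sign-flip permutation test, counted by its unadjusted p of 0.0469. On the log2(TPM + 1) scale the largest difference was that of Itgb8, and at a pseudocount of 0.1 that of Itgb3. Itgb8 averaged 7.69 ± 2.50 TPM with TGFβ and 22.4 ± 9.37 TPM in control cultures (SD, n = 7 lines each). Itga5 averaged 123 ± 32.1 TPM with TGFβ and 67.9 ± 15.2 TPM in control cultures, and Itga3 averaged 194 ± 56.8 TPM with TGFβ and 329 ± 96.2 TPM in control cultures (SD, n = 7). Itgav, Itgb1 and Itgb5, the common partner chains, did not pass the test. Between lines, Itgb3, Itga6 and Itgb5 varied the most, Itgb3 mainly through the line WT-CREB. After adjustment over all genes, no member was called for S133A, K or R314A, where 0% of the 12927 genes tested were called. These fits rested on the means of 6 lines, so a missing call does not show equal levels.

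The sequences around the start sites of Itga5 and Itgb8 are shown as examples. Itga5 was higher and Itgb8 lower with TGFβ in every line. Itga3 was also lower and Itgb3 also higher in every line, and their sequences are not shown. Promoter windows of 300 bases (250 before to 50 after the start, from RefSeq on GRCm38.p6) were held for 6 of the 8 members. Both lie on the minus strand, Itga5 at chr15:103366742-103367041 and Itgb8 at chr12:119238227-119238526, and are written 5′ to 3′ in the direction of transcription. Capitals mark CAGAC, the short SMAD binding element, on either strand (GTCTG on the reverse).
Itga5: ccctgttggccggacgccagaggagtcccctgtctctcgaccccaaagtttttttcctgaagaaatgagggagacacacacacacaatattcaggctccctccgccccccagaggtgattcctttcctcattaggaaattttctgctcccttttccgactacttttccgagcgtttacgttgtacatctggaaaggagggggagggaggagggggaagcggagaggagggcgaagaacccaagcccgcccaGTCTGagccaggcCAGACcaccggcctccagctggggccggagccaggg
Itgb8: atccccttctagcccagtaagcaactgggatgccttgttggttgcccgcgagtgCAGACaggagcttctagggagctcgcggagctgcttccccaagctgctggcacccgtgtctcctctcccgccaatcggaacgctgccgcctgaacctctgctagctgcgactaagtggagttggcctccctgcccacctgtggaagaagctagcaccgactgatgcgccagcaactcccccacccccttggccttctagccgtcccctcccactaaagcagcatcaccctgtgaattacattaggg
CAGAC was found at 2 places in the Itga5 window, with first bases at +2 and +15 from the start, and at 1 place in the Itgb8 window, at -196. It occurs in 49.6% of 32851 RefSeq promoter windows of this length, and it was also found in the Itgb1 window (3 places) and in 1 of the 2 windows of Itga3. The cAMP response element core TGACG, held by 20.8% of windows, was found in the Itgb1 window alone, once, at -21. The full element TGACGTCA (1.79% of windows) and the AP-1 site TGAGTCA (5.20%) were found in no member's window. Both strands were searched, and the full element contains this core.

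The 8 genes lie on 6 chromosomes, at the GRCm39 coordinates of the deposited tables. The α chain genes were Itga3 at chr11:94935301-94967637 on the minus strand, Itga5 at chr15:103252713-103275218 on the minus strand, Itga6 at chr2:71617236-71688771 on the plus strand and Itgav at chr2:83551625-83637261 on the plus strand. The β chain genes were Itgb1 at chr8:129412135-129460060 on the plus strand, Itgb3 at chr11:104498826-104561302 on the plus strand, Itgb5 at chr16:33650035-33769708 on the plus strand and Itgb8 at chr12:119121921-119202891 on the minus strand.

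The libraries were of similar breadth, with 12563 to 13053 genes at 1 TPM or more in TGFβ cultures and 12545 to 13081 in control cultures. Counts were not part of the tables, and depth was read from per-base coverage per unit of FPKM (fragments per kilobase, scaled to library size), which was 5.74 to 10.1 with TGFβ and 5.05 to 8.96 in control cultures. Mitochondrially encoded genes held 5.75% to 8.64% of TPM with TGFβ and 5.59% to 10.8% in control cultures. Creb1, the gene the constructs carry, stood at 30.1 to 38.3 TPM with TGFβ and 25.8 to 34.0 TPM in control cultures of the 2 K lines. In the other 4 lines labelled for CREB it stood at 4.43 to 9.68 TPM with TGFβ and 6.59 to 11.6 TPM in control cultures, below the 23.1 TPM with TGFβ and 20.8 TPM in control of the line labelled Vector, so lines are named here only as labelled. Of 15 lens epithelial markers, 10 reached a mean of 1 TPM, while Foxe3, Sox1, Cdh1 and Gja1 stayed under 1 TPM in every library. The summed lens markers were 692 to 1361 TPM with TGFβ and 763 to 2646 TPM in control cultures. With TGFβ, 7 of the 10 were called lower, among them Sox2 (log2 difference -1.14), Cryab (-1.02), Prox1 (-0.73) and Pax6 (-0.37), and Jag1 higher (1.45). Over all 12927 genes tested, 21.4% were called lower and 24.1% higher. The part of the lens markers in the integrin results was not tested. In these bulk samples, fewer cells of a type and less RNA per cell cannot be told apart.

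**Figure D1:**
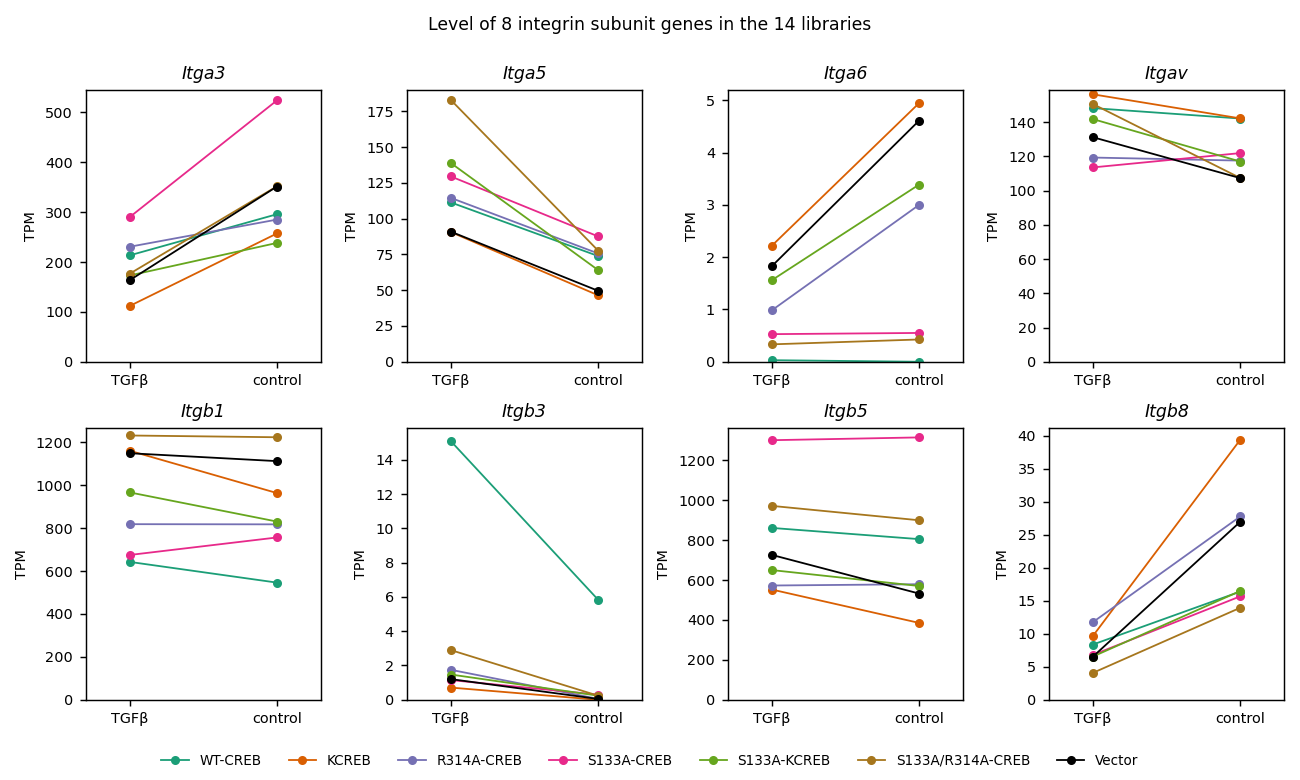
Level of each of the 8 integrin genes in TPM (linear axes from 0, 1 panel per gene), with TGFβ left and control right; each point is 1 library and each line joins the 2 libraries of 1 cell line. Itga5 and Itgb3 are higher with TGFβ in all 7 lines, Itga3 and Itgb8 are lower in all 7, and the line labelled WT-CREB stands apart for Itgb3.

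On the per-length TPM scale, Itgb1 and Itgb5 were the most abundant of the 8 genes and Itga6 and Itgb3 the least. With TGFβ the mean levels ran Itgb1 949, Itgb5 805, Itga3 194, Itgav 137, Itga5 123, Itgb8 7.69, Itgb3 3.47 and Itga6 1.07 TPM. In control cultures they ran Itgb1 893, Itgb5 727, Itga3 329, Itgav 122, Itga5 67.9, Itgb8 22.4, Itga6 2.42 and Itgb3 0.959 TPM. The ranges of Itgb1 and Itgb5 overlapped in both treatments. The ranges of Itgav and Itga5 overlapped with TGFβ, at 114 to 156 TPM for Itgav and 90.6 to 183 TPM for Itga5, but not in control cultures. Itga6 and Itgb3 overlapped in both treatments.

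This order depended on the deposited measure. Levels rebuilt from the per-base coverage, scaled to TPM, were 0.299 times the TPM for Itgb5, 0.276 times for Itgb3 and 0.719 times for Itgav, against 0.876 to 1.0 times for the other 5 members. On the coverage scale Itgb5 averaged 229 TPM units over the 14 libraries and Itga3 239, whereas on the TPM scale they averaged 766 and 262. Itgav and Itga5 averaged 93.3 and 94.0 TPM units on the coverage scale, where their ranges overlapped in control cultures too, at 75.7 to 103 for Itgav and 45.9 to 86.4 for Itga5. Between libraries the factor of Itgb5 varied from 0.288 to 0.303 and that of Itgb8, the most variable of the abundant members, from 0.782 to 0.911, and the TGFβ difference of Itgb8 was -1.40 on the coverage scale.

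Among the α chains, Itga5, the fibronectin receptor chain, rose with TGFβ. Its TPM was lowest at 90.6 (KCREB), with a median of 115 and a highest value of 183 (S133A/R314A-CREB) in TGFβ cultures, against a lowest of 46.5 (KCREB), a median of 73.9 and a highest of 87.6 (S133A-CREB) in control cultures. Every TGFβ library lay above every control library. The difference on the log2(TPM + 1) scale was 0.84 ± 0.09 (SE of the limma fit to 7 lines, limma adjusted p = 0.000221). Single lines lay between 0.56 (S133A-CREB) and 1.22 (S133A/R314A-CREB). The exact sign-flip permutation p over the 7 lines was 0.0156, the smallest that flipping 7 signs can give.

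Itga3, a laminin receptor chain of epithelia, fell with TGFβ. Its TPM was lowest at 112 (KCREB), with a median of 177 and a highest value of 290 (S133A-CREB) in TGFβ cultures, against a lowest of 238 (S133A-KCREB), a median of 296 and a highest of 524 (S133A-CREB) in control cultures. The groups overlapped, through the TGFβ library of S133A-CREB, but within each line the TGFβ library was lower. The difference was -0.77 ± 0.11 on the log2(TPM + 1) scale (SE, limma adjusted p = 0.00083, exact sign-flip p = 0.0156). It ranged between lines from -0.30 (R314A-CREB) to -1.19 (KCREB).

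The ratio of Itga5 to Itga3 TPM put these 2 differences together. It was 0.446 to 1.04 with TGFβ, with a median of 0.556, and 0.141 to 0.269 in control cultures, with a median of 0.221. In the TGFβ library of S133A/R314A-CREB, at 1.04, Itga5 exceeded Itga3, and in the other 13 libraries Itga3 was the higher of the pair. The ratio is built from genes already tested and was given no test of its own.

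Itga6, the other laminin receptor chain, was scarce and unevenly distributed over the lines. With TGFβ it was listed at 2.22 TPM in KCREB, 1.83 in Vector, 1.56 in S133A-KCREB, 0.984 in R314A-CREB, 0.528 in S133A-CREB, 0.333 in S133A/R314A-CREB and 0.030 in WT-CREB. In control cultures it was listed at 4.95 TPM in KCREB, 4.61 in Vector, 3.39 in S133A-KCREB, 3 in R314A-CREB, 0.551 in S133A-CREB, 0.426 in S133A/R314A-CREB and 0 in WT-CREB. Thus 4 lines had 0.984 to 2.22 TPM with TGFβ and 3 TPM or more in control culture, and the others were below 1 TPM in both treatments.

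Over the 7 lines Itga6 fell by 0.53 ± 0.17 on the log2(TPM + 1) scale (SE, limma adjusted p = 0.0255), lower in 6 lines and higher in WT-CREB. The exact sign-flip permutation p was 0.0469. This call did not hold when the pseudocount was 0.1 (limma adjusted p = 0.0514), with no filter (0.132) or in a fit that ignored the line (0.472). It was also lost without Vector (0.0708), without KCREB (0.0664), without R314A-CREB (0.0671) and without S133A-KCREB (0.0663).

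Itgav, the chain shared by the vitronectin and latent TGFβ receptors, was the steadiest member. It stood at 114 to 156 TPM with TGFβ and 107 to 142 TPM in control cultures, and the groups overlapped over most of their range. The difference of 0.17 ± 0.07 on the log2(TPM + 1) scale, positive in 6 of 7 lines, did not pass (limma adjusted p = 0.0687, exact sign-flip p = 0.0781). Leaving out S133A-CREB, the line in which it was lower with TGFβ, brought the adjusted p to 0.0307.

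Among the β chains, Itgb8, the partner of αv best known for releasing active TGFβ, fell in every line. Its TPM was lowest at 4.08 (S133A/R314A-CREB), with a median of 6.80 and a highest value of 11.8 (R314A-CREB) in TGFβ cultures, against a lowest of 13.9 (S133A/R314A-CREB), a median of 16.5 and a highest of 39.4 (KCREB) in control cultures. No TGFβ library reached the lowest control library. The difference was -1.39 ± 0.13 on the log2(TPM + 1) scale (SE, limma adjusted p = 0.000158, exact sign-flip p = 0.0156). It was largest in KCREB (-1.92) and Vector (-1.89) and smallest in WT-CREB (-0.89).

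Itgb3, the β chain of the vitronectin receptor and of the platelet fibrinogen receptor, rose in every line from a very low level. With TGFβ it was listed at 15.1 TPM in WT-CREB, 2.90 in S133A/R314A-CREB, 1.75 in R314A-CREB, 1.47 in S133A-KCREB, 1.21 in Vector, 1.15 in S133A-CREB and 0.711 in KCREB. In control cultures it was listed at 5.84 TPM in WT-CREB, 0.298 in S133A-CREB, 0.239 in both S133A-KCREB and S133A/R314A-CREB, 0.051 in R314A-CREB, 0.048 in Vector and 0 in KCREB. Outside WT-CREB no TGFβ library was as low as any control library.

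The Itgb3 difference was 1.12 ± 0.13 on the log2(TPM + 1) scale (SE, limma adjusted p = 0.000317, exact sign-flip p = 0.0156). Its size depends on the pseudocount, as its levels are near 1 TPM, with 2.59 at a pseudocount of 0.1 and 0.42 at a pseudocount of 5. It was 0.56 on FPKM and 0.52 on the coverage scale. Without WT-CREB it was 1.10 (adjusted p = 0.000795) over the same 12927 genes, although the mean of Itgb3 in the other 12 libraries, 0.838 TPM, is under the filter. In a fit that ignored the line, which varies widely for this gene, the adjusted p was 0.184.

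Itgb5, the vitronectin receptor chain abundant in these cells, stood at 553 to 1301 TPM with TGFβ and 385 to 1315 TPM in control cultures. Its difference of 0.19 ± 0.07 on the log2(TPM + 1) scale, positive in 5 of 7 lines, did not pass (limma adjusted p = 0.0588, exact sign-flip p = 0.0625). The adjusted p was 0.0461 without S133A-CREB and 0.0496 without R314A-CREB. Itgb1, the common β chain, stood at 642 to 1232 TPM with TGFβ and 546 to 1223 TPM in control cultures. Its difference was 0.09 ± 0.06, with a 95% interval of -0.05 to 0.22 (adjusted p = 0.257).

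Among the αv partners other than β1, Itgb8 thus made up 0.417% to 2.01% of the summed Itgb3, Itgb5 and Itgb8 TPM with TGFβ and 1.18% to 9.28% in control cultures. Itgb5 made up nearly all of the rest. Itgb8 TPM was below Itgb3 TPM in 1 library, the TGFβ library of WT-CREB, where the ratio was 0.555. On the coverage scale that ratio was 1.74, and Itgb8 was below Itgb3 in no library. The share of Itgb8 on the coverage scale was 1.23% to 5.77% with TGFβ and 3.43% to 23.6% in control cultures.

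In all, 2 of the 8 members were called higher and 3 lower with TGFβ (limma adjusted p under 0.05) and 3 were not called. Over all 12927 genes tested, 24.1% were called higher and 21.4% lower, so with 8 genes neither count is read as particular to the members. Itga5 and Itgb3 were higher in all 7 lines, as were 18.5% of all genes tested, and Itga3 and Itgb8 were lower in all 7, as were 15.9%. The median difference was 0.13 over the members and 0.02 over all genes tested.

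**Figure D2:**
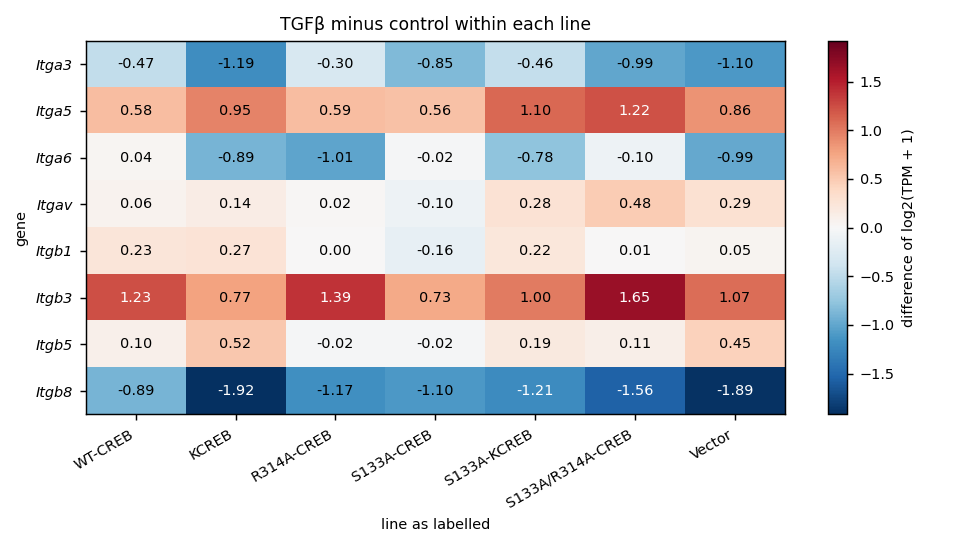
TGFβ minus control on the log2(TPM + 1) scale for each gene (rows) in each line (columns); red is higher with TGFβ and blue is lower, and each cell is the difference of 2 libraries. The rows of Itga5 and Itgb3 are red and those of Itga3 and Itgb8 blue throughout, with values between -1.92 and 1.65.

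Of the 18 other integrin subunit genes, 6 were tested and 12 had means of 0.002 to 0.823 TPM. Itga2, a collagen receptor chain, rose to 16.8 ± 4.10 TPM with TGFβ, against 7.92 ± 1.76 TPM in control cultures (SD, n = 7), a log2 difference of 0.99 ± 0.17 (SE, adjusted p = 0.00163). Itgb2, the leukocyte β chain, rose to 6.40 ± 2.79 TPM with TGFβ, against 2.03 ± 1.297 TPM in control cultures, a log2 difference of 1.31 ± 0.17 (adjusted p = 0.000531). Its leukocyte partner chains Itgal, Itgam and Itgax did not exceed 0.1 TPM in any library.

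Itga1, another collagen receptor chain, fell to 2.35 ± 1.41 TPM with TGFβ, against 3.65 ± 2.09 TPM in control cultures (SD, n = 7), a log2 difference of -0.44 ± 0.12 (SE, adjusted p = 0.0149, or 0.0716 with no filter). Itga2b, the platelet partner of β3, fell to 1.71 ± 0.541 TPM with TGFβ, against 3.49 ± 1.58 TPM in control cultures, a log2 difference of -0.68 ± 0.13 (adjusted p = 0.00265). These 4 genes moved one way in all 7 lines. Itga7, a laminin receptor chain of muscle, stood at 179 ± 67.1 TPM with TGFβ and 203 ± 90.8 TPM in control cultures and was not called (adjusted p = 0.29). Itga11, a collagen receptor chain, was not called either (log2 difference 0.01 ± 0.35, adjusted p = 0.988).

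**Figure D3:**
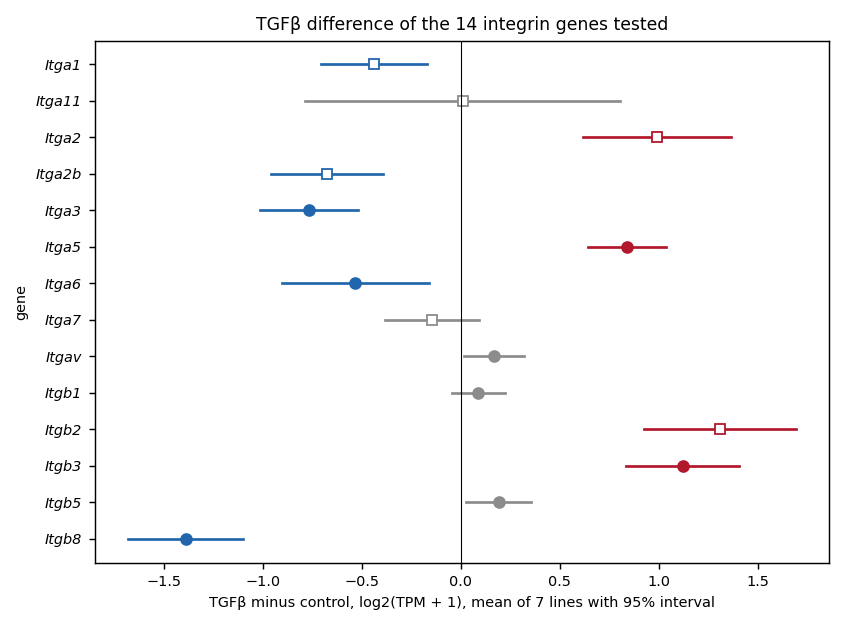
TGFβ minus control on the log2(TPM + 1) scale for the 14 integrin genes tested, as the mean of 7 lines with its 95% interval; filled circles are the 8 members and open squares other subunits, red is called higher, blue called lower and grey not called. The intervals of Itga5, Itgb3, Itga2 and Itgb2 lie above 0, as do the intervals, unadjusted, of the uncalled Itgav and Itgb5, and those of Itgb8, Itga3, Itga2b, Itga6 and Itga1 below it.

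Markers of other cell types were read beside these values. Of 12 macrophage and leukocyte markers, Adgre1, Cd3e and Tyrobp were at 0 in every library and Ptprc, Itgam, Cd14 and Cx3cr1 under 1 TPM, and the summed level was 19.0 to 52.5 TPM with TGFβ and 29.5 to 93.2 TPM in control cultures. Of the 4 tested, Cd68 (log2 difference 0.51), Csf1r (0.47) and Aif1 (0.36) were called higher with TGFβ and Lyz2, the largest part of the sum, lower (-1.37). Of 8 platelet and megakaryocyte markers, Gp6 was at 0 and Ppbp under 1 TPM. Their sums were 10.3 to 27.5 TPM with TGFβ and 8.61 to 29.4 TPM in control cultures. Of the 4 tested, Itga2b was called lower, and Gp1bb, Gp9 and Pf4 were not called. Gp1bb reached 17.0 TPM with TGFβ and 11.7 TPM in control cultures, and Pf4 12.7 TPM and 17.9 TPM. The 9 endothelial markers summed to 2.21 to 5.15 TPM with TGFβ and 1.39 to 3.58 TPM in control cultures. Pecam1, Kdr, Tie1, Emcn and Cldn5 were under 1 TPM, and Esam, the 1 tested, was called higher with TGFβ (log2 difference 0.33). The 9 corneal and epidermal markers summed to 114 to 955 TPM with TGFβ and 276 to 2283 TPM in control cultures. Krt5, Krt12, Trp63, Dsg3 and Perp were under 1 TPM. Of the 2 tested, Aldh3a1, the largest part of the sum, was called lower with TGFβ (log2 difference -2.02) and Krt14 higher (1.46). The 8 muscle markers summed to 87.4 to 217 TPM with TGFβ and 12.8 to 117 TPM in control cultures. Myod1 and Myog were at 0 and Ckm and Actc1 under 1 TPM. Of the 4 tested, Tnnt2 (log2 difference 1.69) and Cdh15 (1.58) were called higher, Des lower (-0.44) and Myh3 not called. Tnnt2 stood at 81.2 to 205 TPM with TGFβ and 7.05 to 89.6 TPM in control cultures. Calls in these marker lists are to be read against 24.1% higher and 21.4% lower over all genes tested. The part of these lists in the integrin results was not tested.

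Of 28 matrix ligands of these integrins, 19 were tested, of which 8 rose and 5 fell with TGFβ. Fn1, fibronectin, the ligand of α5β1, rose to 1008 ± 596 TPM with TGFβ, against 325 ± 371 TPM in control cultures (SD, n = 7), a log2 difference of 2.03 ± 0.23 (SE, limma adjusted p = 0.000289). Ccn2, a matricellular protein also known as CTGF, averaged 743 ± 238 TPM with TGFβ and 168 ± 90.8 TPM in control cultures (adjusted p = 0.000268). Tgfbi, a TGFβ-induced matrix protein bound by several integrins, averaged 50.3 ± 29.5 TPM with TGFβ and 8.64 ± 5.92 TPM in control cultures (adjusted p = 0.00198). Tnc, tenascin C, averaged 9.26 ± 6.04 TPM with TGFβ and 2.12 ± 3.50 TPM in control cultures (adjusted p = 0.00152).

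The laminin chains did not move together. Lamb3, the β chain of laminin-332 and thus of a ligand of α3β1, rose with TGFβ. It averaged 41.2 ± 18.7 TPM with TGFβ and 12.6 ± 6.53 TPM in control cultures (SD, n = 7, log2 difference 1.67 ± 0.16, adjusted p = 0.000164). Lama3, the α chain of laminin-332, was on the list but not among the genes tested. Lamb2, a β chain of basement membrane laminins, fell to 62.6 ± 17.0 TPM with TGFβ, against 94.7 ± 31.1 TPM in control cultures (log2 difference -0.57 ± 0.06, adjusted p = 0.000178).

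Of 10 genes for latent TGFβ and its release, 7 were tested, with 4 higher and 2 lower. Tgfb2 averaged 50.2 ± 12.2 TPM with TGFβ and 27.6 ± 6.98 TPM in control cultures (SD, n = 7, log2 difference 0.84 ± 0.07, adjusted p = 8.869e-05). Tgfb1 averaged 191 ± 52.5 TPM with TGFβ and 124 ± 47.2 TPM in control cultures (0.68 ± 0.12, adjusted p = 0.0022). Mmp14, a membrane metalloprotease that works with αvβ8 in releasing TGFβ, rose (0.28 ± 0.06, adjusted p = 0.00469), and Ltbp3, a latent TGFβ binding protein, fell (-0.49 ± 0.08, adjusted p = 0.00112).

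Of 44 adaptors, activators and kinases at integrin tails, 40 were tested, with 10 higher and 9 lower. Pxn, the focal adhesion scaffold paxillin, rose (log2 difference 0.47 ± 0.06, limma adjusted p = 0.000418). Parva, α-parvin, which links integrin-linked kinase to actin, fell (-0.65 ± 0.07, adjusted p = 0.000332), as did Tns2, tensin 2 (-0.80 ± 0.09, adjusted p = 0.000269), and Flnc, filamin C, an actin crosslinker (-1.04 ± 0.14, adjusted p = 0.000545). Of 15 tetraspanins and lateral partners, all tested, 3 rose and 6 fell. The coreceptor proteoglycans went opposite ways, Sdc1 higher (0.49 ± 0.05, adjusted p = 0.000178) and Sdc4, the syndecan of focal adhesions, lower (-0.80 ± 0.10, adjusted p = 0.000379).

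Cav1, the caveolar coat protein, fell (-0.75 ± 0.09, adjusted p = 0.000325), and so did the tetraspanin Tspan15 (-0.68 ± 0.08, adjusted p = 0.000359). Of 17 genes of integrin trafficking, 15 were tested, with 2 higher and 2 lower. Those called higher were the early endosome GTPase Rab5a (0.30 ± 0.05, adjusted p = 0.00118) and the recycling GTPase Rab11a (0.17 ± 0.04, adjusted p = 0.0108). Those called lower were Iqsec1, an exchange factor for ARF6 (-0.47 ± 0.05, adjusted p = 0.000173), and the sorting nexin Snx27 (-0.20 ± 0.05, adjusted p = 0.00764). In each of these lists the share called in a direction is to be read against 24.1% higher and 21.4% lower over all genes.

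Lines differed in their integrin levels before and after TGFβ. The SD between the 7 line means (each over TGFβ and control) on the log2(TPM + 1) scale was 1.03 for Itgb3, 0.83 for Itga6, 0.51 for Itgb5, 0.44 for Itgb8, 0.38 for Itgb1, 0.37 for Itga3, 0.32 for Itga5 and 0.14 for Itgav. Across the 7 lines, TGFβ and control levels correlated with r of 0.976 for Itga6, 0.954 for Itgb3, 0.949 for Itgb5 and 0.916 for Itgb1. The correlation was 0.700 for Itga5, 0.674 for Itgb8, 0.629 for Itga3 and 0.342 for Itgav. These are descriptions over 7 pairs of libraries that share a line. For Itgb3 both the SD and r rest largely on WT-CREB, at 15.1 TPM with TGFβ and 5.84 TPM in control culture. In the other lines Itgb3 stood at 0.711 to 2.90 TPM with TGFβ and 0 to 0.298 TPM in control cultures.

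The ratio of Itgb5 to Itgb1 set apart WT-CREB and S133A-CREB. Itgb5 was highest in S133A-CREB, at 1301 TPM with TGFβ and 1315 TPM in control culture. Itgb1 was lowest in these lines, at 642 TPM with TGFβ and 546 TPM in control culture of WT-CREB, and 675 TPM with TGFβ and 756 TPM in control culture of S133A-CREB. The ratio of Itgb5 to Itgb1 TPM was 1.34 to 1.93 with TGFβ and 1.48 to 1.74 in control cultures of these 2 lines. In the other 5 lines it was 0.476 to 0.789 with TGFβ and 0.400 to 0.736 in control cultures. On the coverage scale the same ratios were 0.406 to 0.583 with TGFβ and 0.440 to 0.518 in control cultures of the 2 lines, and 0.143 to 0.235 with TGFβ and 0.121 to 0.221 in control cultures of the other 5, so that the lines stood apart but no ratio passed 1. WT-CREB and S133A-CREB are the ones labelled with neither K nor R314A among the 6 CREB lines. Vector, also without K or R314A, stood with the other lines, at a TPM ratio of 0.632 with TGFβ and 0.479 in control culture. The ratio was given no test of its own.

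**Figure D4:**
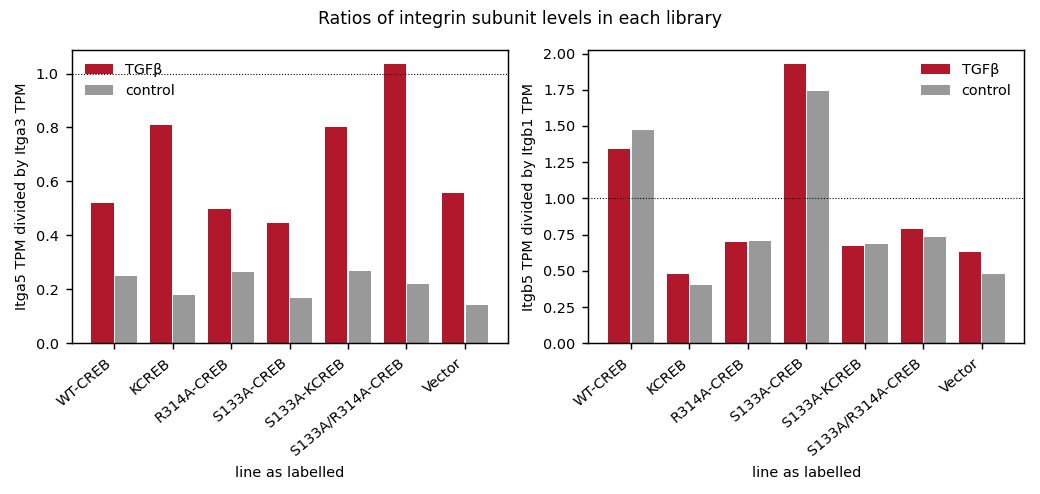
Ratios of TPM in each library, Itga5 over Itga3 (left) and Itgb5 over Itgb1 (right), for each line with TGFβ (red) and control (grey); bars start at 0, each bar is 1 library, and the dotted line marks equal TPM. The Itga5 to Itga3 ratio is 0.446 to 1.04 with TGFβ and 0.141 to 0.269 in control cultures, and the Itgb5 to Itgb1 ratio passes 1 in WT-CREB and S133A-CREB.

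To ask whether the CREB changes were accompanied by other integrin levels, the means of TGFβ and control were compared between matched lines. S133A was compared in 3 pairs and K and R314A in 2 pairs each, in 1 model of the 6 CREB lines. The K and R314A pairs share their base lines, WT-CREB and S133A-CREB, so their results are not independent of each other. After adjustment over all genes, 0% of the 12927 genes were called for S133A, 0% for K and 0% for R314A (limma adjusted p under 0.05). At an unadjusted p under 0.05 there were 753 genes for S133A, 1310 for K and 821 for R314A. Members among these were Itga5, Itgb5 and Itgb8 for S133A, Itga3, Itga6 and Itgb5 for K, and Itgb1 and Itgb5 for R314A. After adjustment none of the 8 members was called. How often all genes go one way over such pairs was not counted, so agreement between pairs is not read as particular to the members.

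Itgb5 was the member with the smallest p for S133A, for K and for R314A. It was higher in each S133A line than in its partner, by 0.65 in S133A-CREB against WT-CREB, 0.40 in S133A-KCREB against KCREB and 0.70 in S133A/R314A-CREB against R314A-CREB on the log2(TPM + 1) scale. The fitted difference was 0.58 ± 0.14 (SE, limma adjusted p = 0.809, 95% interval 0.24 to 0.93). It was lower in both K lines, at -0.85 in KCREB minus WT-CREB and -1.10 in S133A-KCREB minus S133A-CREB (fitted -0.98 ± 0.17, adjusted p = 0.275, interval -1.40 to -0.55). Itgb5 was also lower in both R314A lines, at -0.53 in R314A-CREB minus WT-CREB and -0.48 in S133A/R314A-CREB minus S133A-CREB. For R314A the fitted value was -0.51 ± 0.17 (adjusted p = 0.766). K and R314A were both set against WT-CREB and S133A-CREB, so these are not separate results.

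Itga5 was higher in all 3 S133A lines than in their partners, by 0.23 to 0.53 (fitted 0.37 ± 0.13, adjusted p = 0.809), and Itgb8 was lower in all 3, at -0.16 to -1.14 (fitted -0.72 ± 0.25, adjusted p = 0.809). Neither passed the test. Itga6 was higher in both K lines than in their partners, by 2.11 and 1.12 (fitted 1.62 ± 0.46, adjusted p = 0.378), and Itga3 was lower in both, at -0.56 and -0.94 (fitted -0.75 ± 0.20, adjusted p = 0.367). Itgb1 was higher in both K lines (fitted 0.58 ± 0.24, adjusted p = 0.511) and in both R314A lines (fitted 0.62 ± 0.24, adjusted p = 0.785). Both were set against WT-CREB and S133A-CREB, the lines with the lowest Itgb1, so these are not separate results.

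For Itgb3 the pairs with WT-CREB decided the fitted values. S133A-CREB stood -2.65, KCREB -3.004 and R314A-CREB -2.63 from WT-CREB on the log2(TPM + 1) scale, while the other 4 pairs differed by 0.07 to 0.42. The fitted S133A difference of -0.62 ± 0.68 was 0.40 without WT-CREB. The K difference of -1.47 ± 0.83 was 0.06 without WT-CREB, and the R314A difference of -1.11 ± 0.83 was 0.41. No member passed in any of these fits.

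**Figure D5:**
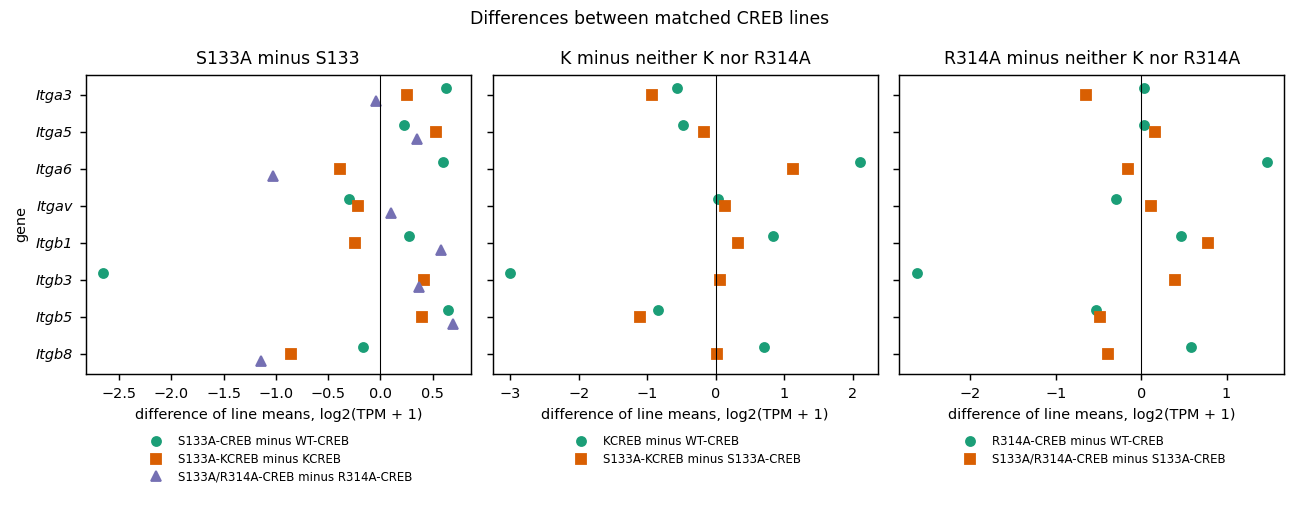
Differences of line means (TGFβ and control averaged) on the log2(TPM + 1) scale between matched CREB lines, for S133A (left, 3 pairs), K (middle, 2 pairs) and R314A (right, 2 pairs); each marker is 1 pair, and the horizontal axes differ in range. Itgb5 markers lie above 0 in all 3 S133A pairs and below 0 in both K pairs and both R314A pairs. The pairs that include WT-CREB lie below -2.6 for Itgb3.

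Whether the TGFβ difference itself depended on S133A was fitted on the 6 within-line differences of the CREB lines. Over all genes 0% were called, with 476 at an unadjusted p under 0.05. The interaction values of the 8 members ran from -0.15 to 0.32 on the log2(TPM + 1) scale, all with an adjusted p of 0.999. The interval of the Itgb8 value was -0.83 to 0.91 and that of Itga5 -0.23 to 0.74.

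Against the line labelled Vector, which shares its 2 libraries with every such comparison, values are given without a test. WT-CREB had 2.87 more Itgb3 with TGFβ and 2.71 more in control culture on the log2(TPM + 1) scale, and its Itgb1 stood at -0.84 with TGFβ and -1.03 in control culture. KCREB was close to Vector for Itga5, at -0.0041 with TGFβ and -0.09 in control culture, and for Itga6, at 0.19 with TGFβ and 0.08 in control culture.

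Genes whose log2(TPM + 1) closely followed each member over the 14 libraries were found among 10084 genes averaging 5 TPM or more (10085 for Itga6 and Itgb3). Pearson r was 0.947 for Itga3 with Kirrel3, 0.957 for Itga5 with Fgd1, 0.951 for Itga6 with Cers4 and 0.893 for Itgav with Brd3. It was 0.957 for Itgb1 with Tfdp1, 0.944 for Itgb3 with Polr2b, 0.942 for Itgb5 with Wdfy4 and 0.960 for Itgb8 with Kat2b. Next in order were Taok3 and Kif13b for Itga3, Cab39 and Adgra1 for Itga5, Agtpbp1 and Galnt11 for Itga6, and Ehmt1 and Sfr1 for Itgav. For the β chains they were Rnf7 and Stx7 for Itgb1, Slc12a2 for Itgb3, Cdon and Olfm1 for Itgb5, and Serhl and Zbtb8b for Itgb8. The 14 libraries share 7 lines and 2 treatments, so these values follow both.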

How the data were processed

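RNA of 14 cultures was sequenced on a DNBSEQ-T7 instrument from dual-mode mRNA libraries, per the labels' protocols. The submitters' processing notes list edgeR, STAR 2.7.6a and StringTie 2.0.4 without their roles, and the build GRCm39. Whether reads were counted by strand, and the annotation's release, is not stated in the labels. The deposited tables hold TPM, FPKM and per-base coverage for each gene, per the file headers, and no counts, so depth is known only relatively. Lines that share a gene identifier were summed. A listed 0 can be a failed estimate.

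The 8 members, the other gene lists and the tests were chosen with earlier results of these data known. TPM was taken as log2(TPM + 1), a scale that understates changes of low genes, and 12927 genes averaging 1 TPM or more were tested. The tool was limma (version 3.58.1, R version 4.3.3), using an intensity trend and Benjamini-Hochberg adjustment over all of them (threshold 0.05, two-sided). Each SE of a log2 difference is that of the limma fit, whose variance for a gene is drawn partly from all genes. The TGFβ fit had the line as a block, since the titles pair the 2 libraries of a line. Deviations from treatment means correlated within a line with r of 0.614 to 0.845, against 0.371 at most between lines. S133A, K and R314A were fitted on line means of the 6 CREB lines and the interaction on within-line differences. Each line and treatment has 1 library and nothing says that cultures were repeated. The p-values for TGFβ, with the block, and for the interaction thus measure the spread of the within-line differences from line to line. Those for S133A, K and R314A measure the spread between line means. Named were all members, other integrin genes averaging 1 TPM or more, up to 4 called genes of each list by p plus up to 3 ligands by size, and 3 genes most like each member. A few genes that these rules name are not reported here. Alternatives were pseudocounts of 0.1 and 5, no filter or one at 5 TPM, quantile normalization, median-of-ratios scaling, no trend, FPKM, no block, each line left out, TGFβ or control libraries alone and, chosen after seeing the data, coverage. For the TGFβ difference of each member, the exact sign-flip permutation test counted as a further alternative, by its unadjusted p.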

Additional observations from a re-analysis of the deposited data

Results flagged for a closer look

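In each group of 7 libraries, the gap between an extreme library and its nearest neighbour was divided by the range of the group, and values above Dixon's 95% critical value were marked. Of the 16 groups examined (8 genes in 2 treatments), 3 were marked, where chance marks about 1 in 20 independent groups of normal values. The values here were TPM without logs, and the 2 groups of a gene share their lines, so the count cannot be judged against that rate. Itgb3 was marked in WT-CREB in both treatments, at 15.1 TPM with TGFβ (gap over range 0.848) and 5.84 TPM in control culture (0.949). Itga3 was marked in the control culture of S133A-CREB, at 524 TPM (0.603).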

How the results depend on the processing

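Itga3, Itga5 and Itgb8 kept their direction and their TGFβ call under all 18 alternatives, and Itgb3 under 16 of 17. These totals include the exact sign-flip permutation test, counted by its unadjusted p, and the limma adjusted p for every other alternative. Without the replicate block, 1 member was called higher (Itgb3 adjusted p 0.184) and Itga6 was not called (0.472), and calls over all genes went to 645 higher and 519 lower. Of 28 other named genes, 14 lost their call there (Itga1, Itga2b, Lamb2, Tgfb1, Ltbp3, Mmp14, Pxn, Tns2, Sdc1, Cav1, Tspan15, Rab5a, Rab11a and Snx27, at adjusted p of 0.0677 to 0.557), and the block changed no other member's call. With a filter at 5 TPM, which leaves Itga6 and Itgb3 untested, 1 member was called higher. Leaving out a line gave 2 to 4 members higher, with 4 without S133A-CREB. With no filter, K gave 4 higher and 10 lower calls over all genes and R314A 2 and 10. Leaving out a line gave 0 to 10 higher and 0 to 16 lower calls for K, and 0 to 12 higher and 0 to 9 lower for R314A. Under these settings no member was called for S133A, K, R314A or the interaction. Differences that were not called changed sign as follows, and the cause was not tested. The interaction was 0.0009 (median-of-ratios scaling) and 0.0671 (quantile normalization) for Itgb3 and -0.0174 (pseudocount 0.1) for Itgb8. The S133A difference of Itga6 was 0.0117 (pseudocount 0.1). The TGFβ difference of Itga11 was -0.1357 (pseudocount 5), -0.0064 (median-of-ratios scaling), -0.1131 (FPKM) and -0.1258 (coverage). With single lines left out, K ranged between -0.0395 and 0.2072 for Itgav, -2.9915 and 0.0554 for Itgb3, and -0.0598 and 0.7732 for Itgb8. R314A ranged between -0.0073 and 0.2069 for Itga5, -0.2684 and 0.0883 for Itgav (0.0333 without WT-CREB), -2.638 and 0.4088 for Itgb3, and -0.3176 and 0.5154 for Itgb8 (-0.2156 without R314A-CREB). The interaction ranged between -0.5336 and 0.1767 for Itga3 (0.0245 without WT-CREB or S133A-CREB), -0.0109 and 0.3011 for Itgav, -0.1427 and 0.2448 for Itgb3, -0.2215 and 0.0074 for Itgb5, and -0.294 and 0.252 for Itgb8. S133A ranged between -0.7079 and 0.1082 for Itga6 and -1.1405 and 0.3953 for Itgb3, and the TGFβ difference of Itga11 between -0.1979 and 0.3427 (-0.0651 without WT-CREB, -0.0582 without R314A-CREB, -0.0199 without S133A-CREB, -0.1446 without S133A/R314A-CREB). Without counts, the precision of genes near 1 TPM, Itga6 and Itgb3, cannot be given per library.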
